A study of Mus musculus with 17 samples.

Results

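Mast cell and basophil genes were followed through mouse fetal liver cells (FLCs) with an edited Gata1 gene and through control FLCs. The 10 genes are Cpa3, Mcpt8, Prss34, Gzmb, Ms4a2, Fcer1a, Hdc, Il1rl1, Il4 and Tpsb2. They were chosen by symbol from the 47069 genes of the overexpression count table and joined to the other count tables by Ensembl identifier, and all 10 were found in each table.

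Mast cells and basophils are blood cells that bind IgE through a high-affinity receptor and, when it is crosslinked, release granules holding proteases and histamine and then make lipid mediators and cytokines. Both lineages depend on GATA factors, and mast cell, basophil and megakaryocyte precursors are close in the hematopoietic tree. The granule proteases divide the lineages: carboxypeptidase A3, chymases and tryptases are stored mainly by mast cells, whereas Mcpt8 and Prss34 mark mouse basophils. Granzyme B, the product of Gzmb, is best known from cytotoxic lymphocytes and is also made by mast cells.

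The series has 17 RNA sequencing libraries in 6 groups, and its design was meant to alter Arid3a levels in Gata1s FLCs. Cells were taken at embryonic day E12.5 to E13.5 from a B6J.129(Cg) strain (laboratory code Fezh/J) whose allele Gt(ROSA)26Sortm1.1 carries CAG-cas9* and EGFP, and 14 libraries carried the guide sgGata1, giving what the labels call Gata1s-FLCs, after the short form of GATA1. Among these, LUC (a luciferase control, n = 3) and Arid3a (n = 3) had doxycycline at 1 µg/mL for 48 h, and sh-ctrl (a control hairpin, n = 3), shArid3a (a hairpin against Arid3a, n = 2, numbered 1 and 3) and miR-125b (n = 3) had doxycycline for 10 days. The WT group (n = 3) carried a luciferase guide, sgLuc, and a luciferase hairpin, shLuc, and had no doxycycline, so WT differs from the other groups in guide, second transgene, doxycycline and count table at once. Nothing in the labels says whether replicate libraries came from separate embryos or cultures, so p-values measure the spread between these libraries, which may be technical.

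The microRNA expressed in the miR-125b group is shown because its seed, bases 2 to 8 in capitals, sets which 3′ untranslated regions (3′ UTRs) could be bound. The mature sequence is from RefSeq (GRCm38.p6), where 2 loci give the same product.
mmu-miR-125b-5p: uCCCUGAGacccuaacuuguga
The 3′ UTRs annotated for the members held no 8mer match (CTCAGGGA) and no 7mer match to bases 2 to 8 (CTCAGGG). A 7mer match to bases 2 to 7 followed by A (TCAGGGA) was found in Ms4a2, in 1 of 4 transcripts with a 3′ UTR, and in the single Hdc transcript. The same letters occurred in 3′ UTRs of 14.3% of 21849 genes. The target sites are given with 10 flanking bases on each side and the match in capitals.
Ms4a2 3′ UTR: ataggtacatTCAGGGAtactgtgagt
Hdc 3′ UTR: tgcctgtgctTCAGGGAgttggggaac
Neither Ms4a2 nor Hdc was called lower with miR-125b. The sh-ctrl libraries held 15, 0 and 59 reads of Ms4a2 and 47, 1 and 21 of Hdc, so a lowering could hardly have been called. The match is a description of letters, not of binding.

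The promoters of 4 members are shown because all 14 edited libraries come from cells with a changed GATA factor and because these genes take different courses across the groups. Each is 300 bases from RefSeq (GRCm38.p6), 250 before to 50 after the annotated start, 5′ to 3′ on the gene's strand, with the GATA letters AGATAA or TGATAA, on either strand, in capitals.
Cpa3 promoter, chr3:20242132-20242431, minus strand: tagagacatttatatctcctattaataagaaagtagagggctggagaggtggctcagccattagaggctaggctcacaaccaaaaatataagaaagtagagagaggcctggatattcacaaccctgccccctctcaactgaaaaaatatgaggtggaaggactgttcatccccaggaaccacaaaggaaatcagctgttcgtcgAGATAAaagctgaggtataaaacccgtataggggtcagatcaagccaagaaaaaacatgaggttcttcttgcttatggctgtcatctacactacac
Ms4a2 promoter, chr19:11623670-11623969, minus strand: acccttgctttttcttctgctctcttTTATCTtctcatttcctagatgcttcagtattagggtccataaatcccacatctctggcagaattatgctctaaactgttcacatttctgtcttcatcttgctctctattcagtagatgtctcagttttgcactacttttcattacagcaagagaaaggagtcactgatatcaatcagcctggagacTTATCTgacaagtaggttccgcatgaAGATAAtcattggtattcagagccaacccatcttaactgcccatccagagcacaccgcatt
Prss34 promoter, chr17:25298144-25298443, plus strand: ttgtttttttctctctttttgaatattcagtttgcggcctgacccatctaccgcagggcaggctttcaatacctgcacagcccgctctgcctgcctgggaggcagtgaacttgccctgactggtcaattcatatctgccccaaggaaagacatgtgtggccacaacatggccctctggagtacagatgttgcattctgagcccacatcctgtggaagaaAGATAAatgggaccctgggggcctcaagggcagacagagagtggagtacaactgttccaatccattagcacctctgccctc
Gzmb promoter, chr14:56262285-56262584, minus strand: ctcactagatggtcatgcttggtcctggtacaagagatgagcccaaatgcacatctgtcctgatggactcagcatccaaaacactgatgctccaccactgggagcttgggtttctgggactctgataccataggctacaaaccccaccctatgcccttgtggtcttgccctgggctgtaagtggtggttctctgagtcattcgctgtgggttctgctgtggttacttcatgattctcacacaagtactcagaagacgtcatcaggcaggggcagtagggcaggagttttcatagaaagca
The Cpa3 and Prss34 promoters each held 1 such match, the Ms4a2 promoter held 3, and the Gzmb promoter held none. Over the 9 members with a promoter entry, 6 held GATA letters (Cpa3, Prss34, Ms4a2, Fcer1a, Il1rl1 and Il4) and 3 did not (Mcpt8, Gzmb and Hdc). Tpsb2 had no entry. Among the members not shown, Hdc and Mcpt8 held no GATA letters and had WT means 508 and 191 times the LUC means. Fcer1a held 1 match and had a WT mean 0.419 times that of LUC. Il1rl1 and Il4 held matches and had WT means 6.01 and 30.7 times those of LUC. A link between these letters and the levels was not tested. Of 32851 mouse promoters of this length, 18.6% held GATA letters, and 3.3% held 2 or more matches. The RUNX letters TGTGGT, searched on both strands, were present in entries of 5 of the 9 members (Mcpt8, Gzmb, Cpa3, Fcer1a and Il1rl1), and 16.8% of all promoters held them at least once. The Mcpt8 and Gzmb promoters each held them 2 times, as 1.8% of all promoters did 2 or more times. The MITF letters CATGTG were found in entries of 3 members (Fcer1a, Il4 and Prss34), against 14.2% of all promoters. A gene with several entries has more chances of a match, and no match says only that these letters are not in the window.

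Libraries held 31339238 to 38678649 counted reads in the table of LUC and Arid3a, 31992089 to 40859301 in the hairpin and miR-125b table and 16362439 to 19212193 in the WT table, so a single read is worth more CPM (counts scaled to a common library size) in WT. The Arid3a transcript was 0.08 higher on the log2 scale in the libraries labelled Arid3a than in LUC and not called (SE 0.12, edgeR adjusted p = 0.737), while it fell in shArid3a by 1.43 (adjusted p = 0.0368) and in miR-125b by 2.56 (adjusted p = 0.000282) on the log2 scale, so the libraries meant to carry more Arid3a are called "labelled Arid3a" here. Gata1 reads were present in all libraries, 75.7 ± 5.73 CPM (SD, n = 3) in WT and 280 to 431 CPM as group means in the edited groups, and counts per gene do not show which form of the protein is made. The cells were hematopoietic by their RNA: Alb, the defining hepatocyte marker, was at 0 or at most 0.158 CPM in all 17 libraries, and the 8 megakaryocyte and platelet markers summed to between 1030 and 4425 CPM. As bulk libraries, they cannot tell apart fewer cells of a type and less RNA per cell.

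Across the edited libraries, Gzmb supplied most of the members' reads and the other 9 members were mostly low, whereas in WT this was turned around. Gzmb made up at most 97.7% of the CPM summed over the 10 members in the 14 edited libraries and least in Arid3a replicate 1, with 387 of 773 CPM, and between 3.31% and 4.27% in the 3 WT libraries. The other 9 members together came to 1365, 1487 and 1534 CPM in WT and to between 6.47 CPM (Arid3a replicate 2) and 386 CPM (Arid3a replicate 1) in the edited libraries. Levels are CPM with TMM scaling inside each table. The WT table was scaled on its own, so WT levels are set beside the others as a description, without a test.

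**Figure D1:**
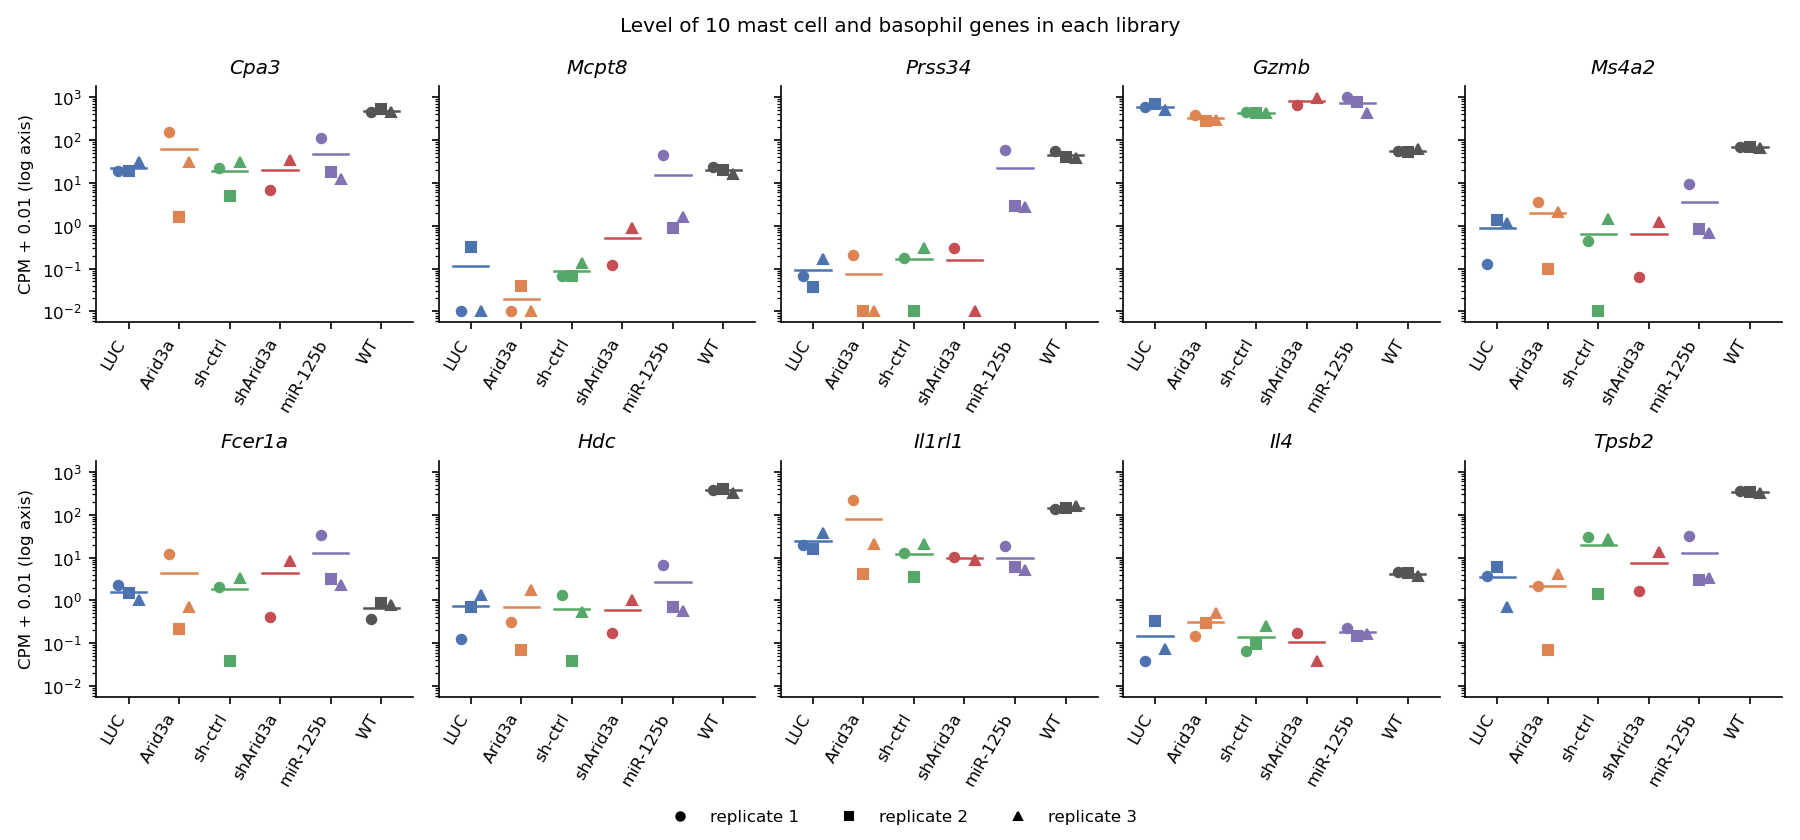
Level of each of the 10 genes in CPM plus 0.01 on a log axis, 1 panel per gene, with the 6 groups on the x axis, a symbol for each library by replicate number and a bar at the group mean. In WT all libraries lie above all edited libraries for 5 genes (Cpa3, Ms4a2, Hdc, Il4, Tpsb2) and below them for Gzmb, while miR-125b replicate 1 stands far above the other libraries of its group for Mcpt8 and Prss34.

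All WT libraries were above all 14 edited libraries for 5 of the 10 members and below them all for 1, where 20.9% and 8.08% of 19949 genes with at least 10 reads did so. These shares are the background for the members' counts. The remaining 4 members (Mcpt8, Prss34, Il1rl1 and Fcer1a) overlapped. For Mcpt8 and Prss34 the overlap came from 1 edited library, miR-125b replicate 1, and for Il1rl1 from Arid3a replicate 1.

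In the tests within a table, none of the 8 members tested was called in the libraries labelled Arid3a against LUC (0.0% of 13495 genes were called; edgeR quasi-likelihood, Benjamini-Hochberg adjusted p-value under 0.05). Without adjustment 2885 of those genes had a p under 0.05, and DESeq2 called 1201 genes, Gzmb among them. None of 9 was called in shArid3a against sh-ctrl, where 0.0857% of 14004 genes were called, 3616 had an unadjusted p under 0.05, and DESeq2 called 1339 genes with Gzmb as the 1 member. With miR-125b against sh-ctrl, 2 of 9 were called, both higher, where 24.4% of genes were called and 12.1% were called higher, so the share of members called was close to that of all genes. None of 9 was called in miR-125b against shArid3a (1.35% of genes called, 2033 with an unadjusted p under 0.05, and 715 by DESeq2, no member among them). The comparisons within the hairpin and miR-125b table share control libraries, and their values are given side by side only.

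The median log2 fold change of the members tested was 1.13 for the libraries labelled Arid3a against LUC, 0.00 for shArid3a against sh-ctrl, 2.08 for miR-125b against sh-ctrl and 1.54 for miR-125b against shArid3a, beside medians of all tested genes between -0.03 and 0.01. Members passed the filter on low counts partly through the group or library in which they are high. Mcpt8 passed in the hairpin and miR-125b table through the miR-125b libraries: it did not pass among shArid3a and sh-ctrl libraries alone. Mcpt8 and Prss34 were not tested against LUC, and Il4 was not tested in the hairpin and miR-125b table. The groups did not overlap for 1 of 8 members in the libraries labelled Arid3a against LUC (27.6% of genes), 1 of 9 in shArid3a against sh-ctrl (43.9%), 2 of 9 in miR-125b against sh-ctrl (44.9%) and 1 of 9 in miR-125b against shArid3a (29.8%).

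**Figure D2:**
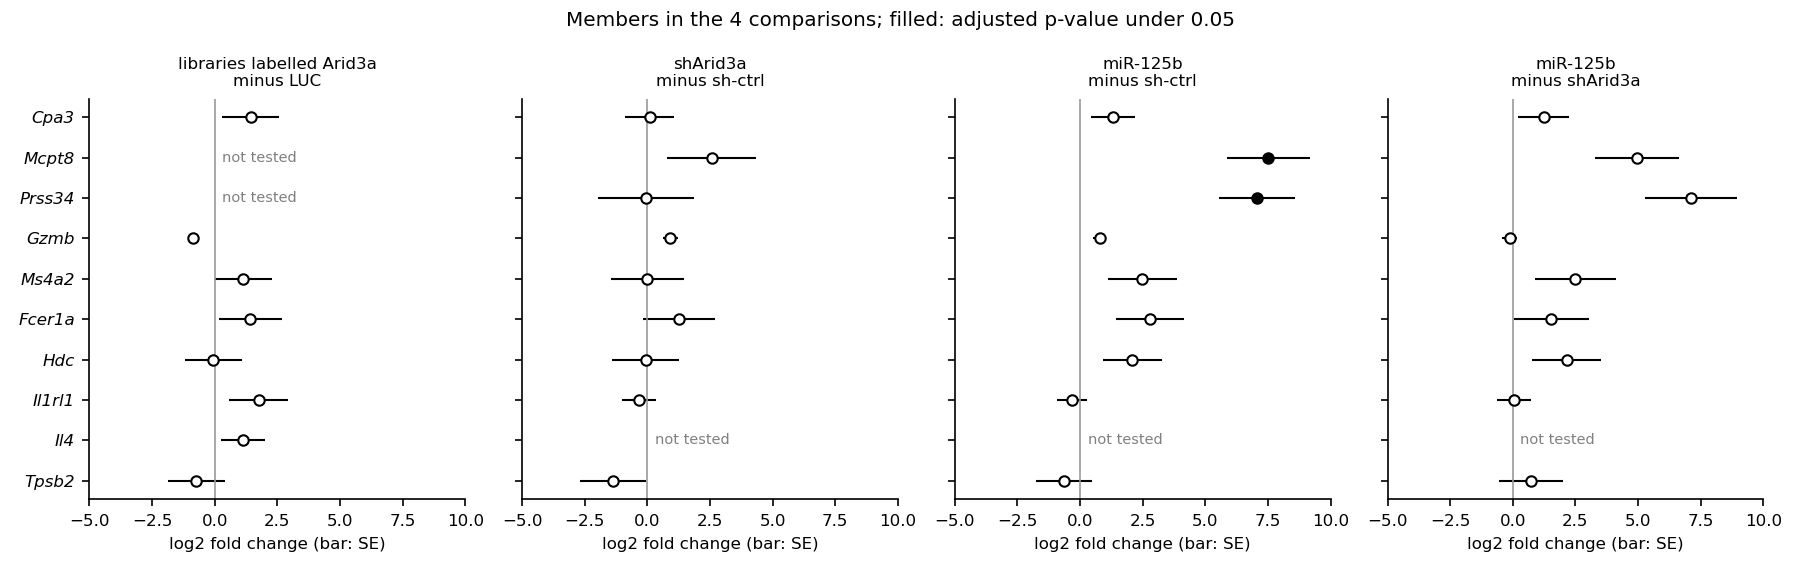
Log2 fold change of each member in the 4 comparisons, with bars of 1 standard error (SE) and filled points where the adjusted p-value was under 0.05. Mcpt8 (7.51) and Prss34 (7.07) in miR-125b against sh-ctrl are the filled points, and Gzmb has the shortest bars in every panel.

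The basophil proteases were higher in miR-125b than in sh-ctrl, by an amount that replicate 1 largely set. Mcpt8 (ENSMUSG00000022157, chromosome 14, 56082166 to 56085273, minus strand, GRCm38, protein-coding) encodes a serine protease stored by mouse basophils. In miR-125b, replicates 1 to 3 held 43.7, 0.872 and 1.57 CPM of it, from 1372, 32 and 62 reads. In sh-ctrl the levels were 0.0565, 0.0586 and 0.122 CPM, from 2, 2 and 5 reads. All 3 miR-125b libraries were above all 3 sh-ctrl libraries, and replicate 1 was 50.2 times the lowest of its own group. Mcpt8 passed the filter on low counts through the miR-125b libraries, the group in which it was high. Its p-values for miR-125b against sh-ctrl and against shArid3a are thus not independent of that selection. The fitted log2 difference was 7.51 (SE 1.66, edgeR adjusted p = 0.0141, range over alternatives 3.21e-10 to 0.0591). It was 3.87 without miR-125b replicate 1 (adjusted p = 0.0291), the call was lost without sh-ctrl replicate 3 (7.96, adjusted p = 0.0591) and in a robust fit (adjusted p = 0.057), and DESeq2 gave no adjusted p for it.

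Prss34 (ENSMUSG00000056399, chromosome 17, 25298394 to 25300165, plus strand) encodes mouse mast cell protease 11, also a basophil tryptase. It was at 60.1, 2.86 and 2.75 CPM in miR-125b, from 1887, 105 and 109 reads, and at 0.170, 0 and 0.293 CPM in sh-ctrl, from 6, 0 and 12 reads. The pattern was that of Mcpt8, with replicate 1 far above and the other two still above all sh-ctrl libraries. On the log2 scale it was 7.07 higher (SE 1.51, edgeR adjusted p = 0.0125, range over alternatives 5.72e-11 to 0.0534), 4.12 without miR-125b replicate 1 (adjusted p = 0.0359), 7.92 without sh-ctrl replicate 3 (adjusted p = 0.0508, not called) and not called in a robust fit (adjusted p = 0.0534). DESeq2 gave no adjusted p. With so few control reads the sizes of both fold changes are uncertain: the 3 sh-ctrl libraries together held 9 Mcpt8 reads and 18 Prss34 reads.

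In shArid3a neither basophil protease was called. Mcpt8 was at 0.109 and 0.884 CPM (4 and 30 reads) in replicates 1 and 3, 2.56 above sh-ctrl on the log2 scale (SE 1.79, edgeR adjusted p = 0.389), and Prss34 at 0.299 and 0 CPM (11 and 0 reads). The miR-125b and shArid3a groups overlapped for Mcpt8 (4.96, SE 1.66, edgeR adjusted p = 0.192) and not for Prss34 (7.12, SE 1.83, adjusted p = 0.0929). Prss34 was called in that comparison with the replicate number as a block (7.38, adjusted p = 0.00882, range over alternatives 2.98e-08 to 0.333). In the overexpression table both genes were at the level of single reads: LUC had 12 Mcpt8 and 8 Prss34 reads over 3 libraries, and the libraries labelled Arid3a had 1 and 7. In WT, Mcpt8 was at 20.1 ± 3.63 CPM (SD, n = 3) and Prss34 at 44.3 ± 8.79 CPM, so miR-125b replicate 1 exceeded every WT library for both.

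Gzmb had an order of groups of its own, and its spread between replicates was narrow in most groups. Within edited groups its highest library was 1.06 to 1.49 times its lowest, except in miR-125b, where it was 2.38 times. Gzmb (ENSMUSG00000015437, chromosome 14, 56258838 to 56262260, minus strand) encodes granzyme B, a serine protease that cuts after aspartate and triggers apoptosis in target cells. Its levels were 582, 678 and 514 CPM in LUC and 387, 279 and 296 CPM in the libraries labelled Arid3a, which lay wholly below LUC. The log2 fold change was -0.88 (SE 0.15, edgeR adjusted p = 0.0774), short of the threshold. It was called without Arid3a replicate 1 (-1.03, adjusted p = 0.000588), by DESeq2 (adjusted p = 2.03e-06) and with no filter on low counts (adjusted p = 0.0359), and was not called in the other 8 alternatives, with adjusted p-values up to 0.375. Without Arid3a replicate 1, 3198 genes were called, and Gzmb was the 1 member among them.

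With the hairpin, Gzmb was at 654 and 973 CPM in shArid3a against 450, 424 and 424 CPM in sh-ctrl, where the 3 libraries differed by only 1.06 times. Both shArid3a libraries lay above sh-ctrl, by 0.91 on the log2 scale (SE 0.30, edgeR adjusted p = 0.12, range over alternatives 0.0088 to 0.586). In miR-125b it was 1027, 775 and 431 CPM, with replicate 3 close to sh-ctrl, and the fold change was 0.78 (SE 0.27, edgeR adjusted p = 0.0595, alternatives 0.00322 to 0.201). DESeq2 and the fit with no filter called both of these differences. Between miR-125b and shArid3a it was -0.13 (SE 0.30, edgeR adjusted p = 0.901), with overlapping groups. WT was lowest, at 56.2, 52.6 and 60.8 CPM, and its mean was below the lowest edited library, 279 CPM. The LUC mean was 10.5 times and the sh-ctrl mean 7.66 times that of WT.

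Beside Gzmb, the defining genes of T and NK cells were at or near 0. Cd3e and Cd8a were at 0 reads in all 17 libraries, Ncr1 reached 0.0294 CPM and Prf1, the perforin that granzymes work with, reached 0.226 CPM in the edited libraries and 0.734 CPM in WT. Summed over its 11 genes the lymphoid list ran from 0.97 to 2.87 CPM in the libraries labelled Arid3a, from 4.93 to 6.73 in LUC, from 9.91 to 29.9 in sh-ctrl, from 30.2 to 71.8 in shArid3a, from 15.3 to 46.0 in miR-125b and from 55.6 to 77.1 in WT. Nkg7, a granule membrane protein of cytotoxic cells that other blood cells can carry, supplied most of it, with 68.7 and 25.5 CPM in shArid3a and 72.7, 53.2 and 50.6 in WT. The sum is therefore lowest in the group where Gzmb is lowest among edited cells, and high in WT, where Gzmb is lowest of all. The part of these markers in the Gzmb values was not tested.

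The mast cell proteases Cpa3 and Tpsb2 were high in WT and varied widely in the edited groups. Cpa3 (ENSMUSG00000001865, chromosome 3, 20215620 to 20242181, minus strand) encodes carboxypeptidase A3, which trims peptides inside mast cell granules and is also expressed in early progenitors. It was at 453, 518 and 443 CPM in WT. In LUC it was at 18.6, 18.5 and 30.6 CPM, and in the libraries labelled Arid3a at 151, 1.62 and 30.6 CPM. The labelled Arid3a libraries thus lay above, below and at the top of the LUC range, a 93.3-fold span in 1 group. The log2 fold change was 1.44 (SE 1.14, edgeR adjusted p = 0.504), and -0.47 without Arid3a replicate 1.

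In the hairpin table Cpa3 was at 21.8, 4.87 and 30.5 CPM in sh-ctrl, 6.85 and 33.9 in shArid3a and 113, 18.2 and 12.2 in miR-125b. All 3 groups overlapped, with log2 fold changes over sh-ctrl of 0.10 (SE 0.98, edgeR adjusted p = 0.963) for shArid3a and 1.32 (SE 0.88, adjusted p = 0.29) for miR-125b. Without miR-125b replicate 1 the latter was -0.32. The WT mean was 20.9 times the LUC mean and 24.7 times the sh-ctrl mean.

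Tpsb2 (ENSMUSG00000033825, chromosome 17, 25366305 to 25369098, plus strand) encodes the tryptase mast cell protease 6. It was at 366, 334 and 317 CPM in WT, and at 3.72, 6.08 and 0.709 CPM in LUC and 2.21, 0.0588 and 4.07 in the libraries labelled Arid3a. In sh-ctrl it was at 30.1, 1.38 and 27.5 CPM, in shArid3a at 1.69 and 13.5, and in miR-125b at 31.5, 2.94 and 3.29. Replicate 2 was the low sh-ctrl library and replicate 1 the high miR-125b library, so the groups overlapped. None of the differences was called: -0.73 for the libraries labelled Arid3a, -1.37 for shArid3a and -0.65 for miR-125b on the log2 scale, with edgeR adjusted p-values of 0.741, 0.534 and 0.7.

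The alpha and beta subunits of the IgE receptor did not share a pattern in WT. Ms4a2 (ENSMUSG00000024680, chromosome 19, 11615523 to 11623719, minus strand) encodes the beta chain, which amplifies the signal, and Fcer1a (ENSMUSG00000005339, chromosome 1, 173221284 to 173227214, minus strand) the alpha chain, which binds IgE. Ms4a2 was at 69.4, 69.8 and 66.7 CPM in WT and between 0 and 9.21 CPM in the edited libraries, all of them lower. Fcer1a was at 0.367, 0.857 and 0.781 CPM in WT, from 6, 16 and 15 reads, and 12 of 14 edited libraries were above the lowest of these. Per kilobase of transcript, WT held 24.4 ± 0.592 CPM of Ms4a2 and 0.67 ± 0.264 CPM of Fcer1a (SD, n = 3), whereas the miR-125b libraries held 1.27 ± 1.74 and 12.8 ± 17.5. The mean level of alpha was below that of beta in WT and above it in all 5 edited groups on this scale.

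In 4 of the 5 edited groups both receptor genes were highest in the library where Cpa3 was highest. LUC was the exception, where replicate 1 was the highest for Fcer1a, replicate 2 for Ms4a2 and replicate 3 for Cpa3. Fcer1a was at 2.32, 1.48 and 0.999 CPM in LUC, 11.9, 0.206 and 0.698 in the libraries labelled Arid3a, 2.03, 0.0293 and 3.40 in sh-ctrl, 0.408 and 8.37 in shArid3a, and 33.0, 3.13 and 2.27 in miR-125b. Ms4a2 was at 0.117, 1.37 and 1.13 CPM in LUC, 3.64, 0.0882 and 2.04 in the libraries labelled Arid3a, 0.424, 0 and 1.44 in sh-ctrl, 0.0544 and 1.21 in shArid3a, and 9.21, 0.844 and 0.657 in miR-125b. The shared libraries were Arid3a replicate 1, sh-ctrl replicate 3, shArid3a replicate 3 and miR-125b replicate 1. The miR-125b difference from sh-ctrl was 2.80 for Fcer1a (SE 1.36, edgeR adjusted p = 0.152) and 2.49 for Ms4a2 (SE 1.38, adjusted p = 0.203), and 0.56 and 0.26 without miR-125b replicate 1. Of the 50-base stretches of Ms4a2 transcripts, 2.1% are shared with Ms4a4b, a small part that counting could split.

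Hdc (ENSMUSG00000027360, chromosome 2, 126593667 to 126619299, minus strand) encodes histidine decarboxylase, the enzyme that makes histamine, and all edited libraries were far below WT. It was at 382, 403 and 324 CPM in WT. In LUC it was at 0.117, 0.711 and 1.35 CPM, in the libraries labelled Arid3a at 0.303, 0.0588 and 1.73, in sh-ctrl at 1.33, 0.0293 and 0.513, in shArid3a at 0.163 and 1.03 and in miR-125b at 6.72, 0.708 and 0.556. The highest edited library was again miR-125b replicate 1, and it was still far below every WT library. The WT mean was 508 times the LUC mean and 593 times the sh-ctrl mean. No difference within a table was called, and the miR-125b difference of 2.08 from sh-ctrl (SE 1.18, edgeR adjusted p = 0.215) was 0.02 without miR-125b replicate 1.

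Il1rl1 (ENSMUSG00000026069, chromosome 1, 40429570 to 40465415, plus strand) encodes ST2, the receptor for the alarmin IL-33. It was at 19.9, 15.5 and 36.8 CPM in LUC and 217, 4.12 and 21.0 in the libraries labelled Arid3a. Arid3a replicate 1 exceeded all WT libraries, which were at 135, 142 and 156 CPM. The log2 fold change was 1.75 (SE 1.18, edgeR adjusted p = 0.438), and -0.92 without that library. In the hairpin table it was at 12.7, 3.55 and 21.0 CPM in sh-ctrl, 10.6 and 8.93 in shArid3a and 18.8, 6.02 and 5.16 in miR-125b, with differences from sh-ctrl of -0.35 and -0.32 (edgeR adjusted p = 0.772 and 0.728). Its miR-125b replicate 1 value was the highest of that group and stayed inside the sh-ctrl range.

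Il4 (ENSMUSG00000000869, chromosome 11, 53602982 to 53618669, minus strand) encodes interleukin 4, the type 2 cytokine released by basophils and mast cells. It was at 4.53, 4.39 and 3.65 CPM in WT and at most 0.502 CPM in any edited library, so WT lay above all of them. The groups labelled Arid3a and LUC had 33 and 15 reads over 3 libraries each, a log2 difference of 1.13 (SE 0.88, edgeR adjusted p = 0.498). With 1 to 10 reads per library in sh-ctrl and shArid3a and 5 to 7 in miR-125b, it was not tested there.

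Read by level, WT was first for 8 of the 10 members, shArid3a for Gzmb and miR-125b for Fcer1a. For Cpa3 the order of group means was WT, the libraries labelled Arid3a, miR-125b, LUC, shArid3a and sh-ctrl, and below WT no neighbours were separated beyond their ranges. The same held for Ms4a2, Hdc, Il4 and Tpsb2, where only the step from WT to the next group was free of overlap. For Gzmb the order was shArid3a, miR-125b, LUC, sh-ctrl, the libraries labelled Arid3a and WT, and each step from LUC downward was free of overlap, though each of these steps sets tables side by side that were scaled separately. All neighbours overlapped for Il1rl1. For Mcpt8 the neighbours free of overlap were sh-ctrl and the libraries labelled Arid3a, at 2, 2 and 5 reads against 0, 1 and 0. For Prss34 they were miR-125b and sh-ctrl. For Fcer1a they were LUC and WT, with 0.999 CPM in the lowest LUC library and 0.857 CPM in the highest WT library. The Mcpt8 and Fcer1a steps also set separately scaled tables side by side.

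The same libraries were high or low for most members. Of the 9 members other than Gzmb, miR-125b replicate 1 was the highest of its group for 9 of 9. Replicate 2 of sh-ctrl was the lowest of its group for 7 and replicate 3 the highest for 7. In the libraries labelled Arid3a, replicate 2 was the lowest for 6 and replicate 1 the highest for 5. These counts include untested members, some ranked on a few reads. Among tested members without Gzmb, miR-125b replicate 1 was the highest of its group for 8 of 8. By the same count, sh-ctrl replicate 3 was highest for 6 of 8 and Arid3a replicate 1 for 4 of 7. Over all genes tested, miR-125b replicate 1 was the highest of its group for 37.8% of genes, sh-ctrl replicate 3 for 30.2% and Arid3a replicate 1 for 42.8%. Gzmb was also highest in miR-125b replicate 1, Arid3a replicate 1 and shArid3a replicate 3 and lowest in Arid3a replicate 2, with a smaller spread. Its Arid3a replicate 1 was 1.38 times replicate 2 where Cpa3 was 93.3 times, and its sh-ctrl values were nearly equal.

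**Figure D3:**
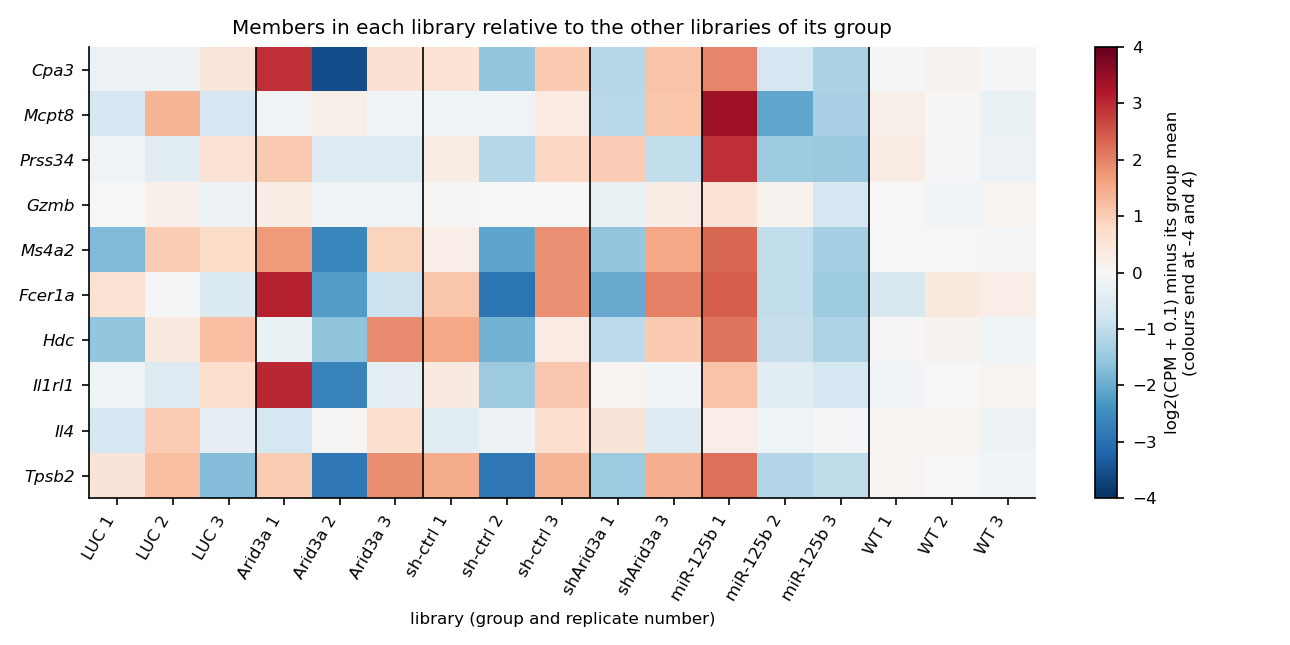
Each member (rows) in each library (columns) as log2(CPM + 0.1) minus the mean of its group, with red above and blue below the group mean and vertical lines between groups. miR-125b replicate 1 and Arid3a replicate 1 are red for most rows, Arid3a replicate 2 and sh-ctrl replicate 2 are blue, and the Gzmb row and the WT columns are near white.

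Arid3a replicate 1 held the highest level of its group for many, but not all, related genes. Of 71 tested genes in 8 lists of related genes (granule proteases, granule store, IgE signalling, lipid mediators, growth and alarmin receptors, transcription factors, cytokines, and mature surface genes), it was the highest of its group for 49, or 69.0%, against 42.8% of all genes tested. Examples, picked after their values were seen, are Tph1, the enzyme that starts serotonin synthesis, at 954, 1.32 and 10.9 CPM in the libraries labelled Arid3a. Hpgds, the hematopoietic prostaglandin D synthase, was at 75.0, 1.18 and 4.35 CPM, and Mitf, a transcription factor needed for mast cells, at 24.3, 0.794 and 2.87 CPM. Gata2 was at 813, 369 and 388 CPM. Other mast cell genes, also picked after their values were seen, were lowest in that library: Kit, the stem cell factor receptor, was at 34.4, 57.1 and 72.6 CPM, and Slc6a4, the serotonin transporter, at 38.6, 61.3 and 81.6 CPM. The summed level of the megakaryocyte marker list was 4038 CPM in Arid3a replicate 1 against 2440 and 2567 CPM in replicates 2 and 3, and its part in these levels was not tested. For miR-125b replicate 1 the count was 34 of 77 related genes, or 44.2%, beside 37.8% of all genes.

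The granule protease clusters that hold members were examined as neighbours. The chromosome 14 cluster, 15 listed genes over 320.8 kb, includes Mcpt8 and Gzmb, and the chromosome 17 cluster, 6 genes over 76.0 kb, includes Prss34 and Tpsb2. In WT, 8 of the 18 listed non-member proteases were above all edited libraries (Mcpt1, Mcpt2, Mcpt4, Cma1, Cma2, Tpsab1, Tpsg1 and Ctsg). A further 1, Gzmc, was below all of them. Of 19949 genes with at least 10 reads, 20.9% lay above all edited libraries and 8.08% below. The 18 include Gzma, which lies in neither cluster, and several genes without reads in any library. Ctsg, the cathepsin G of myeloid granules, was at 570, 565 and 461 CPM in WT and at most 7.20 CPM in edited cells. Gzmc, the gene next to Gzmb, was at 2.32, 2.84 and 2.14 CPM in WT and between 19.0 and 53.3 CPM in edited libraries, so it had the direction of Gzmb and not that of Mcpt8 in the same cluster.

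Cma1, which encodes the chymase mast cell protease 5, was at 291, 219 and 201 CPM in WT. In miR-125b it was at 89.9, 5.75 and 7.38 CPM, in sh-ctrl at 21.4, 0.147 and 24.5 CPM and in shArid3a at 2.26 and 31.2 CPM. Its highest library in each of these groups was that of Cpa3. Of the 18 proteases 3 were tested against LUC and 8 in the hairpin table, and 0 were called in any of the 4 comparisons, by the same quasi-likelihood test whose counts at an unadjusted p under 0.05 are given above.

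**Figure D4:**
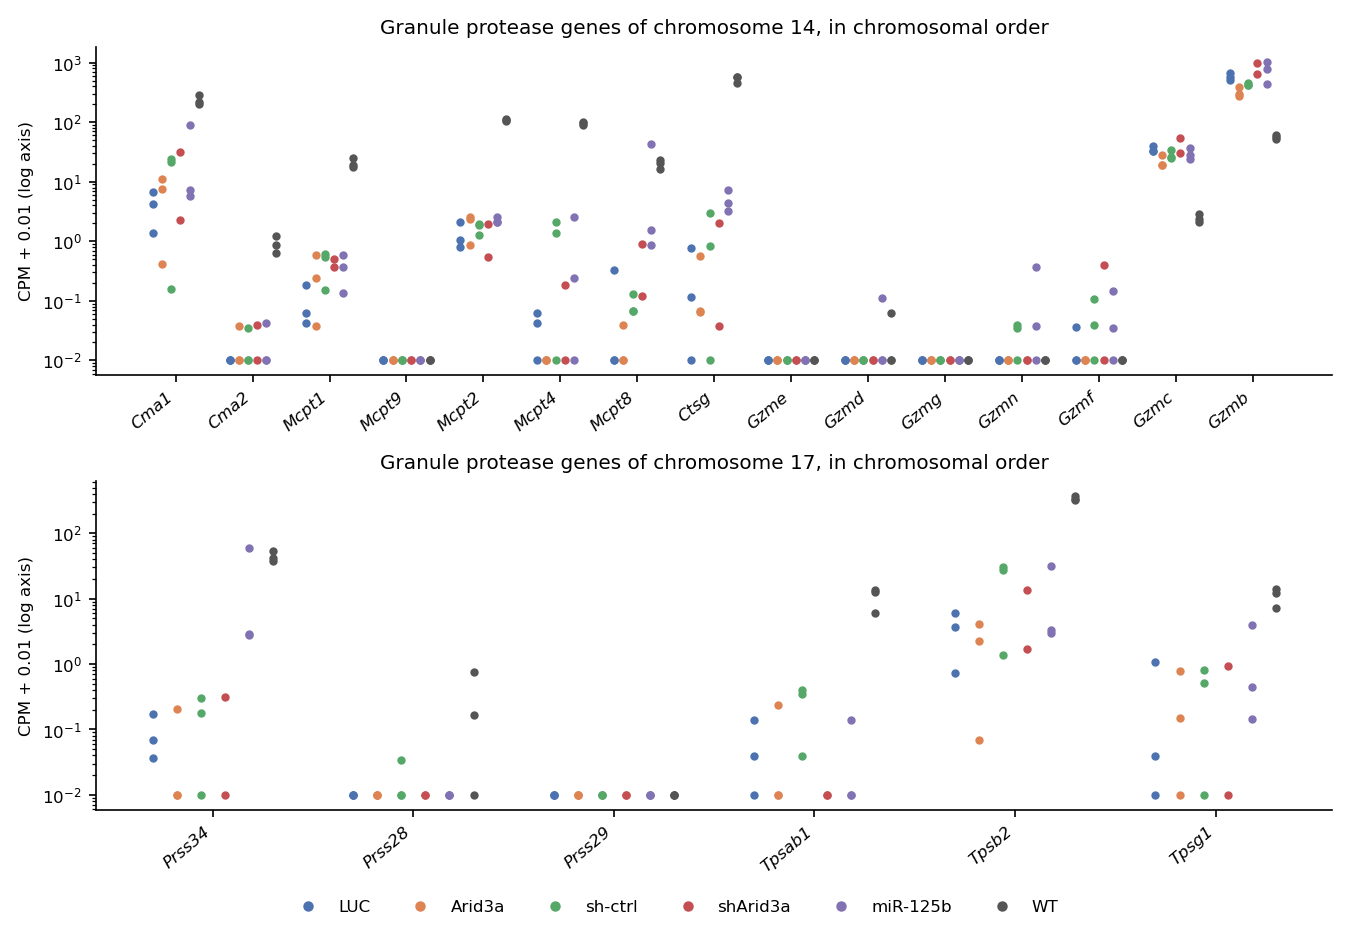
CPM plus 0.01 on a log axis for the granule protease genes of chromosome 14 (upper panel) and chromosome 17 (lower panel) in chromosomal order, 1 point per library, coloured by group. WT points lie above the others for most mast cell proteases and below them at Gzmc and Gzmb, and the miR-125b points at Mcpt8 and Prss34 are the edited points nearest to WT.

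Outside the proteases, the related lists cover further parts of the IgE response. With miR-125b against sh-ctrl, 6 of 77 tested related genes were called higher (7.79%) and 12 lower (15.6%), beside 12.1% and 12.2% of all genes. In IgE signalling, 2 of 13 tested rose and 4 fell. Fyn, a kinase that acts beside Lyn at the receptor, rose from 62.0 ± 6.10 to 91.6 ± 8.79 CPM (SD, n = 3 each; log2 0.56, edgeR adjusted p = 0.0153). Fcer1g, the gamma subunit of the IgE receptor, rose from 195 ± 38.6 to 284 ± 18.8 CPM (0.54, edgeR adjusted p = 0.048). Inpp5d, the inhibitory phosphatase SHIP1, fell from 194 ± 10.5 to 134 ± 0.990 CPM (-0.53, edgeR adjusted p = 0.0182), and Gab2, an adaptor below Fyn, fell from 31.9 ± 5.75 to 19.5 ± 2.43 CPM (-0.71, adjusted p = 0.0203). The list's median was -0.03, as it was over all genes.

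The granule store list had 1 gene higher and 4 lower of 12, with a median of -0.47. Snap23, a membrane fusion protein of granule release, fell from 109 ± 11.8 to 68.9 ± 6.68 CPM (-0.67, edgeR adjusted p = 0.0105), Ndst2, which sulfates heparin, from 30.8 ± 0.742 to 21.3 ± 3.0 CPM (-0.53, adjusted p = 0.0302), and Slc18a2, the vesicular amine transporter, from 127 ± 48.5 to 69.5 ± 1.01 CPM (-0.87, adjusted p = 0.0311). Among lipid mediator genes Ltc4s, the leukotriene C4 synthase, rose from 1.69 ± 0.453 to 4.29 ± 0.492 CPM (1.35, edgeR adjusted p = 0.0175), and Alox5, the 5-lipoxygenase before it in the pathway, fell from 806 ± 46.9 to 488 ± 66.2 CPM (-0.72, adjusted p = 0.0124). So genes of 1 pathway moved in both directions in these lists.

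Of the transcription factors tested, 1 rose and 2 of 13 fell. Cebpa, a factor of granulocyte fate, rose from 2.18 ± 1.40 to 7.26 ± 2.11 CPM (1.74, edgeR adjusted p = 0.0332), Stat5b fell from 74.5 ± 14.4 to 40.9 ± 2.63 CPM (-0.87, adjusted p = 0.00984) and Bhlhe40 from 45.0 ± 11.2 to 19.2 ± 6.67 CPM (-1.22, adjusted p = 0.015). Among receptors Csf2rb2 rose (0.80, edgeR adjusted p = 0.0297) and Il18rap fell (-0.65, adjusted p = 0.0179), and no cytokine of 5 and no mature surface gene of 7 was called. Csf2rb2 and Csf2rb are near-identical copies, so their split of reads is uncertain. In shArid3a against sh-ctrl, Csf2rb, the receptor chain shared by IL-3, IL-5 and GM-CSF, was the 1 related gene called, at 56.9 and 72.4 CPM against 167, 239 and 184 CPM in sh-ctrl (-1.61, edgeR adjusted p = 0.0292), where 0.0357% of all genes were called lower, and none of 71 was called for the libraries labelled Arid3a. In miR-125b against shArid3a, 3 of 77 related genes rose and 2 fell, or 3.9% and 2.6%, beside 0.664% and 0.686% of all genes. Fyn (1.01, edgeR adjusted p = 0.0125), Csf2rb (1.59, adjusted p = 0.00953) and Csf2rb2 (1.98, adjusted p = 0.0105) rose, and Snap23 (-0.77, adjusted p = 0.0341) and Lat, an adaptor of the IgE receptor (-0.84, adjusted p = 0.0449), fell.

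Markers of other blood cells moved with the members in some comparisons. In WT, 12 of 12 neutrophil and monocyte markers, 9 of 9 eosinophil markers and 6 of 6 macrophage markers lay above all edited libraries. Of 19949 genes with at least 10 reads, 20.9% did so. The neutrophil and monocyte list summed to between 14820 and 20030 CPM in WT, against 5.66 to 172 CPM in edited libraries. WT thus differed from edited cells in many myeloid genes at once, and the part of those cells in the member values was not tested. Mpo, the defining neutrophil granule enzyme, was at 62.2, 26.4 and 36.4 CPM in miR-125b and at most 0.565 CPM in sh-ctrl (7.73, SE 0.84, edgeR adjusted p = 0.00162), beside the rise of Mcpt8 and Prss34, and Elane rose too (2.87, adjusted p = 0.0248). In sh-ctrl Mpo held 20, 1 and 0 reads and Elane 4, 7 and 7. Both genes passed the filter on low counts through the miR-125b libraries, the group in which they were high. Their p-values are thus not independent of that selection. Both neutrophil genes were highest in replicate 1, as the basophil proteases were. The list's sum in miR-125b was instead highest in replicate 3, with 143 CPM against 105 CPM in replicate 1. Prtn3 was also highest in replicate 3 of miR-125b, at 104 CPM against 38.1 CPM in replicate 1. The list's sum overlapped, at 75.7 to 143 CPM in miR-125b and 46.8 to 94.8 CPM in sh-ctrl, where Prtn3 alone held 45.9 to 94.1 CPM.

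The eosinophil list summed to 2.07 to 7.68 CPM in miR-125b and 5.36 to 14.5 CPM in sh-ctrl. In miR-125b 7 of its 9 genes were at 0 in all libraries, Prg3 and Epx among them. Megakaryocyte markers were at 2440 to 4425 CPM in all edited groups and at 1030 to 1283 CPM in WT. With miR-125b against sh-ctrl, 3 of 8 genes of that list were called lower and 1 higher, beside 12.2% and 12.1% of all genes. Gp1ba (-1.65, edgeR adjusted p = 0.00465), Vwf (-1.70, adjusted p = 0.0171) and Itga2b (-0.69, adjusted p = 0.0329) fell, and Gp1bb rose (0.76, adjusted p = 0.0115). Itga2b went from 1513 ± 148 CPM in sh-ctrl to 939 ± 255 CPM in miR-125b. The erythroid globins Hbb-bs (-2.21, adjusted p = 0.0103) and Hbb-bt (-1.92, adjusted p = 0.0267) fell, and Afp of the hepatocyte list rose (2.5, adjusted p = 0.0141). The part of these cells in the member values was not tested. LUC replicate 3 held 51.9 CPM of S100a9, which was at 0 in the other LUC libraries. That library also had the highest Cpa3, Prss34, Hdc and Il1rl1 of LUC and the lowest Fcer1a and Tpsb2, and the part of neutrophil RNA in those values was not tested. The hepatocyte list stayed at or below 4.65 CPM in every library.

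**Figure D5:**
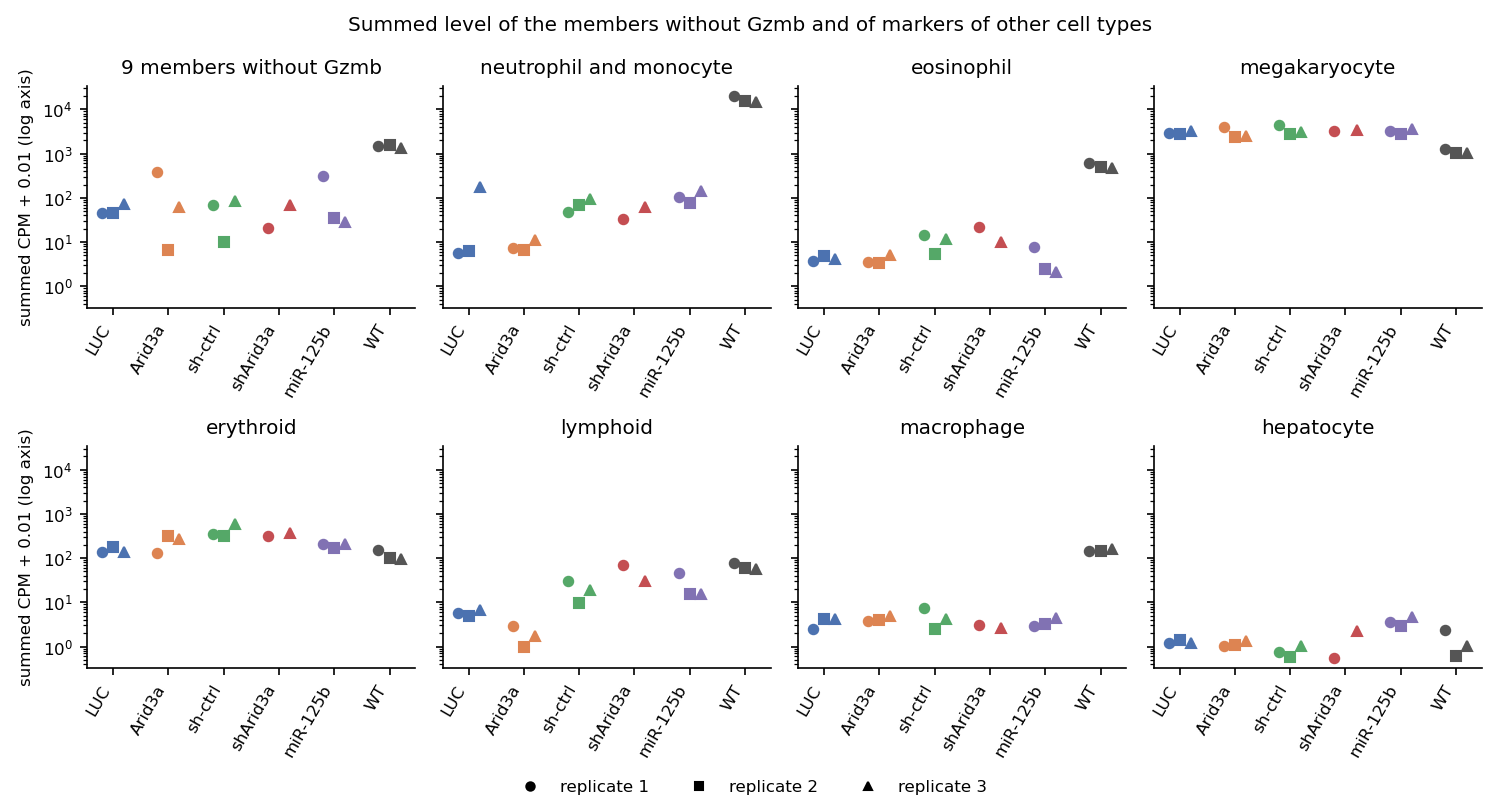
Summed CPM plus 0.01 on a log axis for the 9 members without Gzmb and for 7 lists of markers of other cell types, by group, with a symbol per library. The WT libraries are above all others for the members, the neutrophil and monocyte list, the eosinophil list and the macrophage list, and the members' sum in Arid3a replicate 1 and miR-125b replicate 1 is the highest among edited libraries.

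The genes most like each member were looked for over the 8 libraries of the hairpin and miR-125b table, among 10573 tested non-member genes with a mean log2 CPM of at least 1, by Pearson correlation of log2 CPM as a description. Cma1 was the nearest for Cpa3 (r = 0.921), Ms4a2 (r = 0.909) and Fcer1a (r = 0.952). The nearest to Mcpt8 was Psmg2 (r = 0.965), to Prss34 Tspan33 (r = 0.969), to Gzmb 1700113A16Rik (r = 0.976), to Hdc Vamp4 (r = 0.939), to Il1rl1 Rdm1 (r = 0.899) and to Tpsb2 Slc25a22 (r = 0.952). The points share their table, their scaling and the outlying miR-125b replicate 1, and no p is given.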

How the data were processed

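Reads were counted by the authors, and the deposited tables hold raw counts per gene, which were checked to be whole numbers. Per the submitters' processing notes, fastp, HISAT2 2.0.5 and featureCounts were used with the build mm10, with no role, order or use of strand given. The 3 tables were joined by Ensembl identifier, and no member overlaps a gene on the opposite strand in GENCODE M21 (GRCm38). Groups came from the labels. Counts were scaled by TMM inside each table, filtered by filterByExpr and fitted with edgeR 4.0.16 (R 4.3.3) by the quasi-likelihood test, with all groups of a table in 1 fit, and p-values were adjusted over all genes tested. Genes with an adjusted p-value under 0.05 were called. DESeq2 1.42.0, library totals, no filter, a robust fit, a replicate block, fits of only the groups compared and leaving out each library were the alternatives. The fit was tested on simulated data with a fixed spread and with changes only in genes of higher counts. That test does not cover members with few reads or a wide spread between replicates. CPM per kilobase used the transcript length in the WT table.

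The members, the lists of related and marker genes (158 of 159 symbols matched) and the tests were chosen with earlier results of these data known. From each list the text names at most 3 called genes with the smallest adjusted p-values and the defining markers. It also names genes picked after their values were seen, Gzmc, Ctsg, Nkg7, Prtn3, Prf1, S100a9, Fcer1g and Itga2b among them. For likeness it names the non-member genes with the highest r. Replicate numbers were taken to pair libraries where all of at least 3 pairs correlated over 0.1 in their deviations from the group means. This held for miR-125b and sh-ctrl (0.151 to 0.427) and not for the libraries labelled Arid3a and LUC (0.0084 to 0.365), and the other comparisons had 2 pairs each. Yet sh-ctrl replicate 3 and miR-125b replicate 2, with unlike numbers, reached 0.205, above the 0.151 of the replicate 2 pair. The numbers may therefore not mark true pairs, and the main fits had no replicate block. No test was made between WT and the other tables. Counts are reads without molecular identifiers, so read counts near 3 or below cover counting error only.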

Additional observations from a re-analysis of the deposited data

How the results depend on the processing

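The number of members called was 0 for the libraries labelled Arid3a against LUC and 1 (Gzmb) with DESeq2 and with no filter (0 to 1 with a library left out). For shArid3a against sh-ctrl it was 0, and 1 with DESeq2 and with no filter. For miR-125b against sh-ctrl it was 2 (Mcpt8 and Prss34), against 7 with no filter, 0 in a robust fit and 0 to 3 with a library left out. With DESeq2 it was 1, and this was Gzmb, as DESeq2 gave no adjusted p for Mcpt8 or Prss34. For miR-125b against shArid3a it was 0, against 2 with no filter and 1 with the replicate block. The block changed no member's call for miR-125b against sh-ctrl, where the pairs met the rule above. Over all genes, the libraries labelled Arid3a against LUC gave 0, with 1201 by DESeq2, 71 with no filter and 0 to 3198 with a library left out. The hairpin comparison gave 12, with 1339 by DESeq2, 1237 with no filter, 20 by library totals, 19 in a robust fit and 2 to 11 with a library left out. The miR-125b comparison gave 3414, with 734 to 2872 with a library left out, and miR-125b against shArid3a gave 189, with 715 by DESeq2, 715 with no filter and 12 to 329 with a library left out. The causes were not tested.

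Signs turned in 32 of 384 single-member results. By setting, these were Fcer1a for the libraries labelled Arid3a with the replicate block (-0.11), and for shArid3a Cpa3 by library totals (-0.15) and with the replicate block (-0.29), Ms4a2 with DESeq2 (0.02) and Hdc with the replicate block (0.02). Il1rl1 in miR-125b against shArid3a was -0.01 by library totals. With a library left out the ranges for the libraries labelled Arid3a against LUC were -0.47 to 2.01 for Cpa3, -1.80 to 1.98 for Fcer1a, -1.97 to 0.74 for Hdc and -0.92 to 2.31 for Il1rl1. For shArid3a against sh-ctrl they were -1.47 to 0.84 for Cpa3, -5.55 to 0.90 for Prss34, -3.45 to 1.52 for Ms4a2, -2.15 to 2.20 for Fcer1a, -1.91 to 1.06 for Hdc and -0.81 to 0.25 for Il1rl1. For miR-125b against sh-ctrl they were -0.32 to 1.83 for Cpa3 and -1.15 to 0.29 for Il1rl1. For miR-125b against shArid3a they were -0.42 to 2.80 for Cpa3, -0.43 to 0.18 for Gzmb, -0.70 to 4.96 for Fcer1a, -0.80 to 0.35 for Il1rl1 and -1.29 to 2.89 for Tpsb2. Where a library left out leaves 1 shArid3a library, it is assumed to vary like the other groups. Library totals in place of TMM shifted the median of all genes by -0.19 in both comparisons with sh-ctrl, and gave 470.5 CPM for Gzmb in sh-ctrl.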
